A study of Homo sapiens with 6 samples.

Results

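The DEAD and DEAH box RNA helicases were examined in the RNA-seq of IGF2BP1 knockdown and control cells. The members were all genes of the count table whose symbol begins with DDX or DHX and a number, leaving out DDX58 and DDX60. This gave 53 of 20030 genes, 37 with a DDX and 16 with a DHX symbol. The 6 libraries were 3 of control cells (IGF2BP1-NC) and 3 of knockdown cells (IGF2BP1-KD), all labelled as NCI-H929, an established human multiple myeloma cell line. According to the supplementary methods, knockdown lines of the study were made with lentiviral short hairpin RNAs under puromycin selection, and 2 target sequences within IGF2BP1 are given. Which target these libraries carry, and whether the replicates came from separate cultures, is not stated in the sources used here, so p-values measure the spread between these samples, which may be technical. Neither target sequence occurred in the 682 annotated transcripts of the members, and the longest run of bases shared with any of them was 10. A run of this length was found in DDX17 for 1 target and in DDX25 for the other, and ties in other members were not recorded. Effects through partial matches were not tested.

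Total counts were 16885449 to 18112179 per library, and a count of 0 allows up to 3 counts, or 0.166 to 0.178 CPM (counts scaled to the library total), for counting error only. IGF2BP1 itself, an RNA-binding protein that recognises m6A-modified mRNA, had 48.1, 43.7 and 49.1 FPKM (fragments per kilobase of gene, scaled to the library total) in the IGF2BP1-NC libraries and 13.5, 12.9 and 12.8 FPKM in the IGF2BP1-KD libraries (log2 fold change -1.85 ± 0.07 SE, adjusted p = 4.8e-08). Markers went against the labelled cell type in both groups. All 13 erythroid markers exceeded 1 CPM in each of the 6 libraries, with a summed level of 8372 to 10023 CPM in IGF2BP1-NC and 9333 to 10152 CPM in IGF2BP1-KD. Of 10 plasma cell markers, 3 exceeded that level throughout, with sums of 77.2 to 162 CPM and 81.0 to 87.1 CPM, and 4 (TNFRSF17, IRF4, CD38 and POU2AF1) had at most 3 counts in any library. Between the groups, 1 erythroid marker (SLC4A1, an anion exchanger) rose and 5 fell, and 1 of 5 tested plasma cell markers (SLAMF7) rose, a call lost without IGF2BP1-NC replicate 1 or 3. The cells are therefore called by their label only, and the part of cell identity in the helicase values was not tested.

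Helicases of this superfamily use ATP to pry apart short RNA duplexes or to pull on RNA and displace bound proteins. The names DEAD and DEAH are the amino acids of motif II, which holds the magnesium ion for ATP hydrolysis. DEAD box proteins mostly open a duplex locally and let go, whereas DEAH box proteins move along the strand. Members drive the steps of the spliceosome, the assembly of both ribosomal subunits, mRNA export, translation and decay.

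Motif II was located in the canonical coding sequences (GENCODE release 44, GRCh38) by its spacing from the ATP-binding loop. Among the 53 members it read DEAD in 28, DEAH in 8, DEVH in 5, DECD in 2, DEIH in 2, DEVD in 2, DESD in 1 and DECH in 1. The search found none in 4 members (DDX1, DDX11, DDX24 and DHX32), which says only that no match lay at this spacing. The codons around the motif are shown for DHX9, which rose most, for 4 splicing helicases that changed, and for 3 paralog pairs. Each line is the coding strand, 5′ to 3′, with the 12 bases of motif II in capitals.
DHX9: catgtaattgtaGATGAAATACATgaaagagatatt
DDX46: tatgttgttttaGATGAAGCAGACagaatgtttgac
DDX23: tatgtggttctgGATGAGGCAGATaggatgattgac
DHX15: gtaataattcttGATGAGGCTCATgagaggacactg
DHX8: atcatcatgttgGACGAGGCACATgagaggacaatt
DDX39A: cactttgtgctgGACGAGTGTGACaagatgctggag
DDX39B: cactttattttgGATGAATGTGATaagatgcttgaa
DDX5: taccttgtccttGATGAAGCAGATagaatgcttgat
DDX17: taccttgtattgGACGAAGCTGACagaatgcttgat
DDX19A: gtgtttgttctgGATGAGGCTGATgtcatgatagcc
DDX19B: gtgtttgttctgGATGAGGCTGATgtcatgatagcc
These windows lie at chr1:182867005-182867040 (plus strand, exon 14 of DHX9), chr5:134790499-134790534 (plus, exon 13 of DDX46), chr12:48833412-48833447 (minus, exon 13 of DDX23), chr4:24556311-24556346 (minus, exon 4 of DHX15) and chr17:43507620-43507655 (plus, exon 14 of DHX8). Those of the pairs lie at chr19:14410996-14411031 (minus, exon 5 of DDX39A), chr6:31536507-31536542 (minus, exon 5 of DDX39B), chr17:64503233-64503268 (minus, exon 7 of DDX5), chr22:38494931-38494966 (minus, exon 7 of DDX17), chr16:70366189-70366224 (plus, exon 8 of DDX19A) and chr16:70329396-70329431 (plus, exon 8 of DDX19B). Of the 36 bases, DDX5 and DDX17 differed at 6, DDX39A and DDX39B at 8, and DDX19A and DDX19B at 0.

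After IGF2BP1 knockdown, 4 helicase transcripts rose and 11 fell, mostly by small amounts. DHX9, DDX59, DHX8 and DDX17 rose. DDX46, DDX39B, DHX32, DDX6, DDX11, DDX23, DHX29, DHX15, DDX39A, DDX18 and DDX52 fell. Called means an adjusted p under 0.05 in the quasi-likelihood test of edgeR, with Benjamini-Hochberg adjustment across all 11994 tested genes. Of the 49 members with enough counts, 15 (30.6%) were called, against 28.2% of all tested genes. The share called higher was 8.16% against 13.7%, and the share called lower was 22.4% against 14.5%. The total share of calls was thus near the background, with the lower direction above it and the higher direction below it. The background was not matched for level, and the members had a higher median level than all tested genes. The part of level in these shares was not tested. Leaving out IGF2BP1-KD replicate 2, IGF2BP1-KD replicate 3 or IGF2BP1-NC replicate 2 reduced the calls to 2 higher and 8 lower in each case. Calls over all tested genes fell as well, from 1648 higher and 1738 lower in the main fit. They were 1144 and 1146, 1220 and 1244, and 1158 and 1242 in these fits, in the same order. With upper-quartile scaling the split was 6 higher and 8 lower, and 1953 and 1523 over all tested genes.

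Levels of the tested members spanned a mean of 1.15 to 190.1 FPKM, with a median of 23.1 FPKM against 8.22 FPKM for all tested genes. The median log2 fold change (IGF2BP1-KD minus IGF2BP1-NC) was -0.07 over the tested members and -0.0048 over all tested genes. A negative value was found in 33 members (67.3%) and in 50.7% of all tested genes. In 30 members (61.2%) the scaled CPM of the 3 knockdown libraries did not overlap that of the 3 control libraries, against 45.7% of all tested genes. This share was not matched for level either. For called members, here and below, a lack of overlap is not added support, since they were called on the same libraries. Of the 49 members, 46 changed by less than 1.5-fold, and DHX9 was the only called member beyond it (2.04%, against 10.1% of all tested genes). Of the 34 members not called, 8 had an adjusted p under 0.1, and 10 had an unadjusted p under 0.05, of which 6 were negative and 4 positive. The matching shares over all genes not called were not computed, so these counts are not read as a trait of the members. DDX25, DDX3Y, DDX4 and DDX43 had 0 to 6 counts in each library and were not tested. DDX25 and DDX4 are best known from germ cells.

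**Figure D1:**
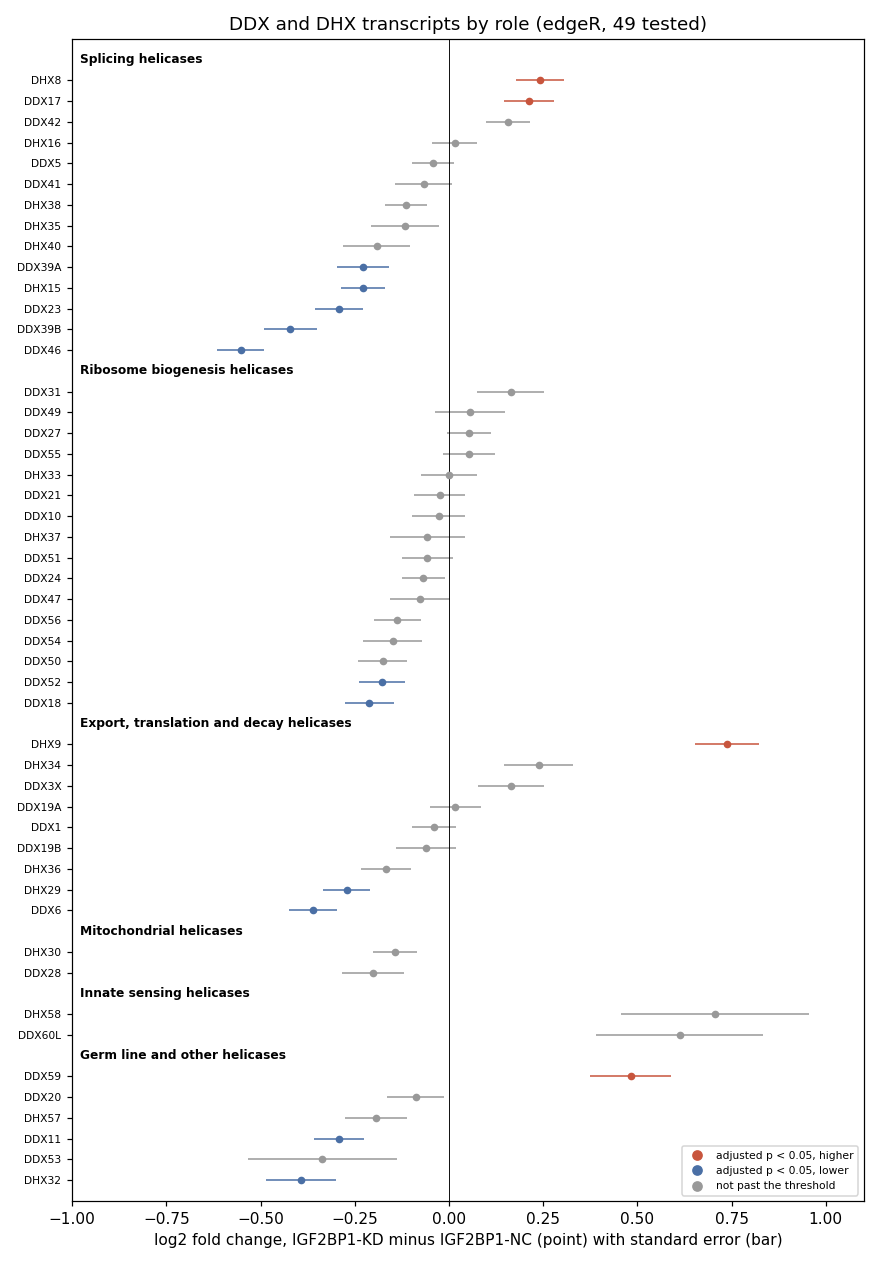
Log2 fold change (IGF2BP1-KD minus IGF2BP1-NC, edgeR) of the 49 tested members, grouped by role on the vertical axis. Points are estimates and bars are standard errors, with 4 members higher, 11 lower and 34 not past the threshold; DHX9 lies farthest right at 0.74 and DDX46 farthest left at -0.55.

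DHX9 (RNA helicase A, NCBI gene 1660) had the largest change of all members in size. This DEIH helicase unwinds structured RNA, including paired inverted repeats, and lies at chr1:182839347-182887982 on the plus strand, with 28 exons. DHX9 had 101, 117 and 125 FPKM in the IGF2BP1-NC libraries and 183, 192 and 203 FPKM in the IGF2BP1-KD libraries. Every knockdown library was above every control library, and the gap between the groups exceeded the range within either. The log2 fold change was 0.74 ± 0.09 (SE), or 1.67-fold (adjusted p = 0.00022), and it stayed between 0.65 and 0.82 with any library left out. An antisense gene, DHX9-AS1, overlaps on the other strand, and the strand setting of the counting is not stated.

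The rise moved DHX9 through the order of levels per length. By FPKM it ranked 6, 5 and 4 of the 53 members in IGF2BP1-NC libraries 1, 2 and 3 and was the highest in all 3 IGF2BP1-KD libraries. DDX39B, the highest in each control library, ranked 2 or 3 in the knockdown libraries. DHX9 took 0.0519% ± 0.0056 of all counts in IGF2BP1-NC and 0.0874% ± 0.0044 in IGF2BP1-KD (SD, n = 3). All members together took 0.821% ± 0.015 and 0.821% ± 0.0093 of the counts. Without DHX9, the other members took 0.763% to 0.781% of counts in the control libraries and 0.728% to 0.737% in the knockdown libraries, which did not overlap. The family total is a share of all counts and is not fixed. Its near equality in the groups means that the remainder fell by about as much as DHX9 rose. Whether the 2 changes are linked was not tested. In bulk samples fewer cells and less RNA per cell cannot be told apart.

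**Figure D2:**
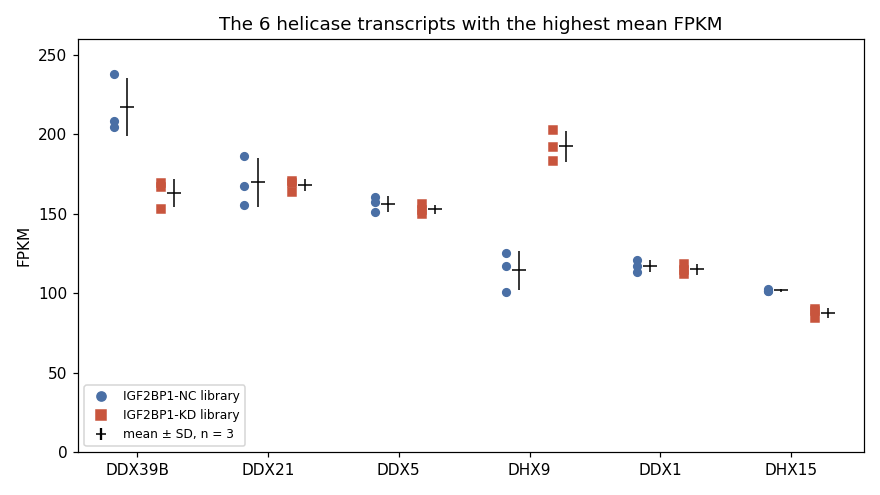
FPKM of the 6 helicase transcripts with the highest mean level, with a marker for each library (circles IGF2BP1-NC, squares IGF2BP1-KD) and the mean ± SD (n = 3) beside them. DHX9 moved from 101 to 125 FPKM up to 183 to 203 FPKM, above DDX39B, DDX21 and DDX5, while DDX1 stayed near 116 FPKM.

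Among the 14 splicing helicases, 5 fell, 2 rose and 7 did not pass the test, and the median log2 fold change was -0.11. Of all tested genes, 14.5% fell and 13.7% rose. DDX46 (PRP5 in yeast, NCBI gene 9879), which acts when the U2 snRNP joins the branch site, had the largest fall of all members. It had 34.5, 37.7 and 37.0 FPKM in IGF2BP1-NC and 24.2, 25.4 and 25.4 FPKM in IGF2BP1-KD, so that the highest knockdown library was well below the lowest control library. The log2 fold change was -0.55 ± 0.06 (adjusted p = 0.00017), and it was called with any library left out. C5orf24 overlaps DDX46 on the same strand.

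DDX39B (UAP56, NCBI gene 7919) helps U2 snRNP binding and loads export factors on mRNA, and had the highest mean level of the family, 190.1 FPKM over all libraries. Its values were 238, 208 and 205 FPKM in IGF2BP1-NC and 167, 169.5 and 153 FPKM in IGF2BP1-KD (log2 fold change -0.42 ± 0.07, adjusted p = 0.0015). DDX23 (PRP28 in yeast), which frees the 5′ splice site from U1, had 70.4, 76.1 and 79.1 FPKM in the control libraries and 62.5, 61.2 and 62.0 FPKM in the knockdown libraries (-0.29 ± 0.06, adjusted p = 0.0069). For both genes the groups did not overlap and the call held with any library left out.

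DHX15 (PRP43 in yeast), which takes apart the spent spliceosome and also acts on pre-ribosomes, had 101, 101.5 and 103 FPKM in IGF2BP1-NC and 88.7, 89.9 and 84.3 FPKM in IGF2BP1-KD. Its control values were nearly equal and all above the knockdown values (-0.23 ± 0.06, adjusted p = 0.013), with an adjusted p of 0.054 without IGF2BP1-KD replicate 3. DHX8 (PRP22 in yeast), which releases the spliced mRNA, went the other way. It had 12.9, 12.7 and 13.5 FPKM in the control libraries and 15.3, 15.3 and 16.1 FPKM in the knockdown libraries (0.24 ± 0.06, adjusted p = 0.016). The adjusted p of DHX8 rose to between 0.051 and 0.054 without IGF2BP1-KD replicate 2, IGF2BP1-KD replicate 3 or IGF2BP1-NC replicate 2.

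The other 7 members of the group are DDX5, described with its paralog below, DDX41, DDX42, DHX16, DHX35, DHX38 and DHX40. DHX16 and DHX38 (PRP2 and PRP16 in yeast) drive the catalytic steps of splicing. Their log2 fold changes were 0.015 ± 0.06 and -0.11 ± 0.06. DDX41, a spliceosomal helicase mutated in inherited myeloid neoplasms, had 44.8, 52.0 and 51.9 FPKM in IGF2BP1-NC and 50.1, 46.8 and 46.4 FPKM in IGF2BP1-KD, with overlapping groups (-0.07 ± 0.08). DHX35 and DHX40 were among the lower levels of the group, with means of 7.93 and 11.2 FPKM in IGF2BP1-NC and log2 fold changes of -0.12 ± 0.09 and -0.19 ± 0.09 (adjusted p = 0.37 and 0.13). DDX42 had 46.4 to 48.7 FPKM in IGF2BP1-NC and 51.5 to 55.2 FPKM in IGF2BP1-KD without passing the threshold (0.16 ± 0.06, adjusted p = 0.063), although 5 of 9 other settings called it.

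**Figure D3:**
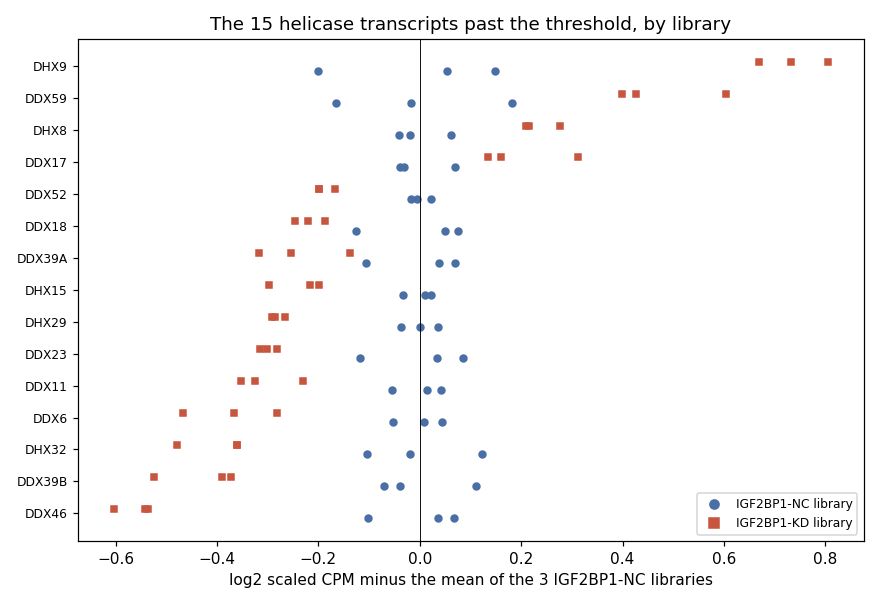
Log2 scaled CPM in each library, minus the mean of the 3 IGF2BP1-NC libraries, for the 15 called members (circles IGF2BP1-NC, squares IGF2BP1-KD). In all 15 the groups did not overlap, and DDX39A, DDX18 and DDX17 leave the narrowest gaps. The 15 were called on these same libraries, so the lack of overlap is not added support.

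Of the 10 helicases of export, translation and decay, 9 were tested. DHX9 rose, DDX6 and DHX29 fell, and 6 did not pass the test (28.2% of all tested genes were called). DDX6, which holds mRNAs in a repressed state and joins decapping in P-bodies, had 33.5, 31.2 and 33.5 FPKM in IGF2BP1-NC and 27.3, 25.7 and 24.1 FPKM in IGF2BP1-KD (-0.36 ± 0.06, adjusted p = 0.0023). DHX29, which helps the small ribosomal subunit through structured leaders, had 16.9 to 17.4 FPKM in the 3 control libraries and 14.2 to 14.4 FPKM in the 3 knockdown libraries (-0.27 ± 0.06, adjusted p = 0.0082). In both the highest knockdown library was below the lowest control library, and the calls held with any library left out.

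DDX3X, a translation helicase with a homolog on the Y chromosome, had 63.0, 74.0 and 80.1 FPKM in IGF2BP1-NC and 80.2, 84.6 and 80.6 FPKM in IGF2BP1-KD. The control libraries spread widely, and the log2 fold change of 0.16 ± 0.09 did not pass the threshold (adjusted p = 0.19). DDX1 (-0.04 ± 0.06) lay close to 0. DHX36, which resolves G-quadruplexes, and DHX34, which takes part in nonsense-mediated decay, had -0.17 ± 0.07 (adjusted p = 0.078) and 0.24 ± 0.09 (adjusted p = 0.074). Neither was called.

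Of the 16 ribosome biogenesis helicases, DDX18 and DDX52 fell, 0 rose and 14 did not pass the test (28.2% of all tested genes were called), with a median log2 fold change of -0.06 and a range of -0.21 to 0.16. DDX18, a factor of the large subunit, had 50.1, 56.0 and 55.3 FPKM in IGF2BP1-NC and 45.8, 47.9 and 46.9 FPKM in IGF2BP1-KD (-0.21 ± 0.07, adjusted p = 0.032). It was called with IGF2BP1-NC replicate 1 left out but lost the call without any of the other 5 libraries, with an adjusted p of up to 0.11. DDX52, a factor of the small subunit whose motif II reads DESD, had 12.8, 12.2 and 12.1 FPKM in the control libraries and 10.9, 11.2 and 10.9 FPKM in the knockdown libraries (-0.18 ± 0.06, adjusted p = 0.047). The call of DDX52 was lost when any library was left out and under 8 of 9 other settings.

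DDX21, which acts in rRNA transcription and processing, had the second highest mean level of the family, 168.9 FPKM. Its values of 186, 156 and 167.5 FPKM in IGF2BP1-NC enclosed those of 164, 169.6 and 171 FPKM in IGF2BP1-KD (-0.025 ± 0.07, adjusted p = 0.81). DHX33 and DHX37, the DEAH box members of the group, had log2 fold changes of 0.0011 ± 0.07 and -0.06 ± 0.10. The remaining 10 DDX members of this group without a paralog in the pairs below were DDX10, DDX24, DDX27, DDX31, DDX47, DDX49, DDX51, DDX54, DDX55 and DDX56. DDX54 and DDX56, factors of the large subunit, were the lowest of these at -0.15 ± 0.08 (adjusted p = 0.17) and -0.14 ± 0.06 (adjusted p = 0.12). DDX54 had 40.5, 47.3 and 48.7 FPKM in IGF2BP1-NC and 41.9, 42.0 and 40.3 FPKM in IGF2BP1-KD, so that control replicate 1 lay among the knockdown libraries. DDX31 was the highest of them, with 4.65, 5.43 and 5.55 FPKM against 5.88, 5.72 and 6.06 FPKM (0.16 ± 0.09, adjusted p = 0.19).

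The 2 mitochondrial helicases, DDX28 and DHX30, both of which act in assembly of the mitochondrial ribosome, were not called. DDX28 had 13.7, 14.5 and 12.8 FPKM in IGF2BP1-NC and 12.3, 11.3 and 12.3 FPKM in IGF2BP1-KD (-0.20 ± 0.08, adjusted p = 0.089). DHX30 had 51.7, 52.4 and 52.6 FPKM in the control libraries and 49.1, 48.5 and 45.4 FPKM in the knockdown libraries (-0.14 ± 0.06, adjusted p = 0.090). For both, the knockdown libraries were all below the control libraries.

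The 2 members of innate sensing were low and varied widely. DHX58 (LGP2), which modulates the sensing of viral RNA, had 0.97, 1.05 and 0.598 FPKM in IGF2BP1-NC and 1.23, 1.53 and 1.54 FPKM in IGF2BP1-KD, from 29 to 72 counts. The groups did not overlap, and the log2 fold change of 0.71 ± 0.25 was not past the threshold (adjusted p = 0.056). DDX60L had 1.51, 1.02 and 0.859 FPKM in the control libraries and 1.45, 1.57 and 2.20 FPKM in the knockdown libraries, which overlapped (0.61 ± 0.22, adjusted p = 0.066). Without IGF2BP1-NC replicate 1 both were called, with adjusted p of 0.048 and 0.0050. DDX60L is a close relative of DDX60, so reads may be split between them.

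Of the 9 remaining members, 6 were tested, of which 1 rose, 2 fell and 3 did not pass (28.2% of all tested genes were called). DDX59, whose gene is known from a developmental syndrome of face and digits, rose from 6.95, 5.89 and 5.33 FPKM in IGF2BP1-NC to 8.02, 8.19 and 9.31 FPKM in IGF2BP1-KD (0.48 ± 0.11, adjusted p = 0.0073). DDX59-AS1 overlaps it on the other strand. DHX32 fell from 8.58, 9.77 and 8.88 FPKM to 7.14, 7.16 and 6.62 FPKM (-0.39 ± 0.09, adjusted p = 0.0096). DDX11, a DNA helicase of sister chromatid cohesion that carries a DDX symbol, fell from 10.5, 10.7 and 10.9 FPKM to 9.22, 8.64 and 8.51 FPKM (-0.29 ± 0.07, adjusted p = 0.0079). Pseudogene copies of DDX11 exist, so its reads may be shared. The groups did not overlap for any of these 3, and each call held with any library left out. DDX20 (GEMIN3), of the complex that assembles spliceosomal snRNPs, had -0.09 ± 0.08. DHX57 and DDX53 had -0.19 ± 0.08 and -0.34 ± 0.20 and did not pass the threshold.

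Close paralogs were set against each other within each library. DDX5 and DDX17 are partners in splicing and transcription and replace each other in part. DDX5 had 157, 160.3 and 151 FPKM in IGF2BP1-NC and 149.8, 156 and 153 FPKM in IGF2BP1-KD, with overlapping groups (-0.04 ± 0.06, adjusted p = 0.61). DDX17 rose from 78.7, 77.1 and 82.9 FPKM to 89.9, 88.5 and 100.5 FPKM (0.21 ± 0.07, adjusted p = 0.034). The call of DDX17 was lost without any of the 3 knockdown libraries or without IGF2BP1-NC replicate 2, with adjusted p up to 0.13. DDX5 made up 66.6%, 67.5% and 64.5% of the summed FPKM of the pair in the control libraries and 62.5%, 63.8% and 60.3% in the knockdown libraries. The mean difference was -4.04 percentage points, and the groups did not overlap (exact permutation test, two-sided, p = 0.1, the smallest that 3 against 3 allows; 0.2 after adjustment over 4 pairs).

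DDX39A and DDX39B share the DECD motif and the export role, and both fell. DDX39A had 74.4, 81.7 and 80.2 FPKM in IGF2BP1-NC and 63.9, 66.9 and 72.8 FPKM in IGF2BP1-KD (-0.23 ± 0.07, adjusted p = 0.030). Its call was lost without IGF2BP1-KD replicate 1 or 2 or IGF2BP1-NC replicate 2 or 3, with adjusted p up to 0.13. The share of DDX39A in the pair was 26.7% ± 2.5 in IGF2BP1-NC and 29.4% ± 2.5 in IGF2BP1-KD (SD, n = 3), which overlapped (exact permutation p = 0.4). No window of 50 bases was common to the mRNAs of DDX39A and DDX39B or to those of DDX5 and DDX17.

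DDX19A and DDX19B, nuclear pore helicases of mRNA export, were not called. DDX19A had 28.7, 31.7 and 31.8 FPKM in IGF2BP1-NC and 30.5, 31.2 and 32.4 FPKM in IGF2BP1-KD (0.02 ± 0.07), and DDX19B had 7.90, 8.28 and 7.83 FPKM and 7.77, 7.87 and 7.57 FPKM (-0.06 ± 0.08). The share of DDX19A was 79.3% ± 0.90 and 80.2% ± 0.75 (SD, n = 3; exact permutation p = 0.3). Their motif windows printed above are identical, and 24.6% of the 50-base windows of the DDX19A mRNA also occurred in that of DDX19B. How the reads from such stretches were assigned was not tested. DDX21 made up 93.6%, 92.9% and 93.7% of the pair with DDX50 in the control libraries and 94.1%, 94.1% and 94.0% in the knockdown libraries (exact permutation p = 0.1). DDX50 had 12.6, 11.9 and 11.3 FPKM and 10.2, 10.7 and 11.0 FPKM (-0.18 ± 0.07, adjusted p = 0.064).

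Related genes outside the family gave the setting of these values. The counts below stand beside 13.7% of all tested genes called higher and 14.5% called lower. Of 9 tested DExD or DExH box helicases with other symbols, EIF4A2, a translation initiation helicase, rose (0.31 ± 0.07, adjusted p = 0.0071) and 8 did not pass. Among 27 cofactors of DExD or DExH box helicases, including helicases with other symbols, PAIP1 rose (0.58 ± 0.07). CHERP, RBM10 and GPATCH4 fell, the first of these by 0.38 ± 0.06 on the log2 scale. Of 32 splicing factors without a helicase motor, 0 rose and 8 fell, with SRSF3 and SRSF7 lowest at -0.62 ± 0.06 and -0.61 ± 0.06 (median of the list -0.08, adjusted p = 6.5e-05 for both genes). Of 33 ribosome biogenesis factors without a helicase motor, 0 rose and 4 fell, among them NHP2 (-0.36 ± 0.09) and FBL (-0.28 ± 0.08), with a median of -0.04. DHX9 is itself a known partner of IGF2BP1. Of 12 other partners, which exclude the members, ELAVL1 (-0.33 ± 0.06) and IGF2BP3 (-0.22 ± 0.07) fell and 10 did not pass. Some of these calls were lost with a library left out. NHP2 lost it without IGF2BP1-NC replicate 2 (adjusted p = 0.053), IGF2BP3 without IGF2BP1-KD replicate 1 or 3 or IGF2BP1-NC replicate 3 (adjusted p up to 0.11), and FBL without any library but IGF2BP1-KD replicate 2 and IGF2BP1-NC replicate 1 (up to 0.069). GPATCH4 lost it without any library but IGF2BP1-NC replicate 1 (up to 0.15).

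Features that the symbol did not fix were compared by class, as descriptions with no test. The median mRNA GC content was 44.2% in the 4 higher members, 41.6% in the 11 lower members, 49.0% in the 34 others and 48.5% in all tested genes with a canonical mRNA. Both called classes thus had a lower median GC content than the rest, but the ranges overlapped. They were 41.7% to 50.3% in the higher, 38.7% to 57.7% in the lower and 38.2% to 61.6% in the other members. The part of GC content in the calls was not tested. The sequence GGACT, the commonest core of m6A sites, occurred 0.782, 0.858 and 0.702 times per kilobase (medians) in these classes and 0.923 times in all tested genes with a canonical mRNA; DHX9 had 3 copies in 4493 bases. Methylation itself was not analysed here.

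RefSeq promoters (GRCh38.p14, 300 bases around each start, most of them upstream) were matched for 44 of the 49 tested members and searched on both strands for 4 motifs. The ETS sequence CCGGAAG was present in 45.5% of these promoters and in 20.2% of the 9508 promoters of tested genes. CCAAT was present in 45.5% against 37.0%, the E-box CACGTG in 18.2% against 10.4%, and TATAAA in 4.55% against 5.40%. By class, the ETS sequence was found in 1 of 4 higher, 2 of 9 lower and 17 of 31 other members with a promoter. DHX9 and DDX59, which are among the 4 higher members, both lie on the long arm of chromosome 1 (DDX59 at chr1:200623896-200669907, minus strand), which was noted after their values were seen. Of 530 tested genes on that arm, 15.5% were called higher and 15.1% lower, against 13.8% and 14.7% of all tested genes with a position.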

How the data were processed

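Total RNA of 6 libraries was sequenced after a stranded mRNA library kit. Per the labels and the supplementary methods, the authors used Trimmomatic for trimming and HISAT2 with GRCh38 for mapping, and deposited HTSeq counts per gene without normalization and FPKM values described as made with Cufflinks. Tool versions, annotation and counting strand are not given in the sources used here. Counts were tested with edgeR 4.0.16 under R 4.3.3 (TMM scaling, filterByExpr, robust dispersion, quasi-likelihood, two-sided) over all 11994 tested genes, and levels between genes were compared in the deposited FPKM only. Paralog shares were compared with exact permutation tests (scipy 1.17.1). Alternatives were DESeq2 1.42.0, limma 3.58.1 (voom, and log2(FPKM + 1) or log2(FPKM + 0.1) for genes with a mean of at least 1 FPKM), other scalings and filters, a replicate block, a 1.5-fold limit and each library left out. The edgeR, DESeq2 and limma fits were tested on simulated data with known changes beyond 1.5-fold and a fixed spread between libraries. Smaller changes, such as those of most members, were not simulated.

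Members and gene lists were chosen with earlier results of these data known. Every member was accounted for. Full values are given for the called members (at most 12 in each direction), DHX9, the paralog pairs and the 3 highest members by FPKM. Other lists are given by counts and up to 2 or 3 called genes. Further member values were chosen after they were seen.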

Additional observations from a re-analysis of the deposited data

How the results depend on the processing

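DHX9 and IGF2BP1 kept their direction and call under all 9 other settings and all 6 fits with a library left out. With a fold of at least 1.5 required, 1 member was higher (DHX9) and 0 were lower (10.1% of all tested genes passed this limit in either direction). With a library left out, 2 to 6 members were higher and 8 to 13 lower. Over all tested genes, the same fits gave 1144 to 1929 higher and 1146 to 2062 lower. The median log2 fold change of the members lay between -0.11 and -0.059 in these fits. Upper-quartile factors, which moved the median of all genes to 0.026, gave a member median of -0.037 and 0.0053 for DDX21; this follows from the shift in scale. Signs near 0 turned with a library left out, between -0.039 and 0.050 for DDX19A and between -0.077 and 0.034 for DDX21, neither called. The replicate numbers did not pair the samples (correlations of -0.052, 0.036 and -0.11 between same-numbered libraries). With the replicate block 4 members were higher and 10 lower, and 1413 and 1500 of all tested genes. All 4 paralog shares kept their direction with any library left out, and with counts in place of FPKM, which describe the same libraries. For DDX39A and DDX19A the groups overlapped, and the exact permutation p was 0.8 and 0.6 without IGF2BP1-NC replicate 1. Of the 15 calls, 9 held in each fit with a library left out. The share of all called genes that held in each of these fits was not computed, so the 9 are not read as a trait of the members. The cause of the losses was not tested.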
